A study of Mus musculus with 26 samples.

Results

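The cytosolic ribosomal protein genes encode the proteins of the ribosome that translates nuclear messages. They were taken as every row whose symbol was Rpl or Rps with a number (with a final a or x where present), Rplp0, Rplp1, Rplp2 or Rpsa. This gave 76 of the 23420 symbols in the deposited table, 46 of the large (60S) and 30 of the small (40S) subunit. The rule reads symbols only. Rps3a stands in the table as Rps3a1 and falls outside the rule, as does Fau, which encodes a ribosomal protein fused to a ubiquitin-like protein. The genes were described in 10 groups of flow-sorted mouse antigen-presenting cells, in 26 RNA-seq libraries. CD8a dendritic cells (DCs) and CD11b DCs of the spleen had 2 libraries per genotype, while lung CD11b DCs, alveolar macrophages and lung inflammatory DCs had 3. Each cell type came from mice labelled mTORΔAPC (KO below) and from wild-type littermates (WT). All but the inflammatory DCs were taken at steady state. House dust mite extract, an allergen, had been instilled into the nose of the mice that gave the inflammatory DCs (25 µL per dose at 1 mg/mL). Their sample labels give day 17 and the treatment protocol 18 days. No untreated group of these cells was analysed here. The promoter that drives the deletion in antigen-presenting cells, the deleted exons, the ages and the numbers of animals are not stated in the labels.

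A ribosome holds a single copy of most ribosomal proteins, and cells keep the proteins of both subunits in balance. The messages of these genes start with a C followed by a run of pyrimidines, the 5′ terminal oligopyrimidine (TOP) motif. The kinase mTOR, within complex mTORC1, sets how well TOP messages are translated, largely through the binding protein LARP1, which also holds and stabilizes them. The libraries measured transcript levels only and say nothing of translation. mTOR was the gene deleted in these mice, so the question of the design that bears on this gene set is how the transcripts stand in each cell type with and without it.

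A TOP motif lies where a message begins, so 30 bases at or near the annotated start are shown for Rps6, the substrate of the S6 kinases, and for 7 members that recur in the results or show the motif clearly. They were read from RefSeq's table of starts (GRCm38.p6, the same assembly as mm10), 5′ to 3′ on the transcribed strand. The capitals mark the longest pyrimidine run with one of the hexamers given below.
Rps6: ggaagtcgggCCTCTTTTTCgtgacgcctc
Rpl4: tgacaagTCTTTCCTTTTCCTgtgggagca
Rpl5: agccaCTCTTTCTCacgtcgcttgcgtgct
Rpl12: agcaggatccgTCTTTTCggctttcggctc
Rpl13a: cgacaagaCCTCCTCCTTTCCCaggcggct
Rpl28: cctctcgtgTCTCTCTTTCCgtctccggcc
Rpl35: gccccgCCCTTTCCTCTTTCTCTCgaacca
Rps9: aaccgccttgTCTCTCTTTgtctcgggcct
They lie, in that order, at chr4:86857349-86857378 (minus strand), chr9:64173362-64173391 (plus strand), chr5:107900503-107900532 (plus strand), chr2:32961702-32961731 (plus strand), chr7:45128722-45128751 (minus strand), chr7:4792953-4792982 (plus strand), chr2:39005115-39005144 (minus strand) and chr7:3704025-3704054 (plus strand). Counted with the annotated start as 0, the runs began, in the same order, at -1, -18, -20, 1, 2, -3, -7 and -6. Those of Rpl4 and Rpl5 end before the RefSeq start and so lie outside the message as RefSeq annotates it. The GENCODE M21 annotation starts these genes further upstream, at chr9:64173375 and chr5:107900502. By those starts the run of Rpl5 lies within its gene and that of Rpl4 partly so. The table held an entry for 56 of the 76 members. In the 50 bases centred on the start, the hexamer CTTTCC, its variant CTTTTC or the hexamer CTCTTT was found on the transcribed strand in 19 of 56 members (33.9%) and in 1749 of 27025 genes in the table (6.47%). These hexamers overlap each other in some genes, so the separate counts of 10, 5 and 9 members add up to more than 19. On the opposite strand, members carried a hexamer in 2 of 56 (3.57%) against 5.88% of all genes. CCGGAAG, a core letter sequence of ETS family sites, was found on either strand of the 300-base window in 23 of 56 members (41.1%) and in 9.93% of all genes. These are matches of letters, and annotated starts may differ from those used in these cells.

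The libraries held 7.37 to 14.1 M reads, recovered from the deposited normalized counts. Mtor was called lower in 4 KO groups, by -2.93 ± 0.27 (adjusted p = 5.27e-08) in spleen CD8a DCs, -2.36 ± 0.27 (adjusted p = 2.29e-05) in spleen CD11b DCs, -2.02 ± 0.22 (adjusted p = 3.66e-07) in alveolar macrophages and -0.70 ± 0.22 (adjusted p = 0.0205) in lung CD11b DCs, as log2 fold changes ± SE. In inflammatory DCs its KO counts of 196, 236 and 218 lay below the WT counts of 404, 345 and 336, at -0.74 ± 0.22 (adjusted p = 0.0668). The KO libraries of both lung DC types thus kept the most Mtor reads, and counts over the whole gene cannot show whether those reads come from a deleted allele. The summed counts of 4 Y-linked genes were at most 2.3 in the 10 steady-state WT libraries and at least 659.5 in the 4 KO spleen and 3 KO alveolar macrophage libraries, so sex and genotype cannot be told apart in those comparisons. All 6 inflammatory DC libraries (1419.8 to 2523) and 1 of 3 lung CD11b KO libraries held Y-linked reads. Several of these libraries held Xist as well. The spleen CD8a DCs carried Xcr1 and the spleen and lung CD11b DCs Itgam, markers of their types. The cells labelled inflammatory DCs had only 20.1 to 170.1 normalized counts of Flt3 and 26.4 to 111 of Zbtb46, which mark conventional DCs, against 4682 to 10180.4 and 1399 to 2426 in the spleen DCs. The whole conventional DC list of 9 genes, which holds both, summed to 260745 to 303574 counts in WT inflammatory DCs. It summed to 24534 to 26324 in WT alveolar macrophages and 811056 to 942746 in WT lung CD11b DCs, so the list lay between the 2. The alveolar macrophage list summed to 835771 to 1204580 counts in WT inflammatory DC libraries, against 343494 to 354899 in WT alveolar macrophages and 9606 to 14945 in WT lung CD11b DCs. Most of that sum was Chi3l3, a chitinase-like protein made by activated macrophages as well, with 1135997, 784487 and 814207 counts. Chi3l3 was most of the list in WT alveolar macrophages too, with a mean of 273577 out of 349578 counts. In both cell types the rest of the list summed to more than the whole list in WT lung CD11b DCs. The scavenger receptor gene Marco, also listed, had 366, 82.8 and 207 in the WT inflammatory DC libraries and 2444, 2670.1 and 2603 in WT alveolar macrophages. The inflammatory DCs are called by their label here. Nothing in the labels says that samples came from separate animals, so p-values measure the spread between these samples.

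Normalized counts per kilobase of merged exon give the levels of one gene against another. Over all 26 libraries, among the highest were the acidic stalk proteins Rplp0 at 6836 per kb and Rplp1 at 6195, Rpl4 at 5554 and Rpl32 at 5429. The lowest were Rpl26, listed at 0 in every library, Rpl30 at 1.7 per kb, Rpl34 at 4.0, Rps27 at 35.0 and Rpl35a at 272. Rpl30 ranged from 1.3 to 8.0 normalized counts, Rpl34 from 1.8 to 18.2 and Rps27 from 9.1 to 68.5, far under the other members. GENCODE M21 names 6 pseudogenes for Rpl26, 9 for Rpl30, 2 for Rpl34 and 1 for Rps27. Members with more of them could stand far higher, such as Rpl31 and Rps12, with 24 each and means of 1124 and 1908 counts. The part of pseudogenes in the low levels was not tested. How reads shared with near-identical copies were counted is not given in the sources used here, so the levels of all 76 genes, and of these 4 above all, are uncertain. A filter of at least 10 normalized counts in at least 2 libraries kept 74 members (44 large, 30 small) and 13311 genes in all. Rpl26 and Rpl30 were not tested.

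The 74 genes moved together across the libraries. For each, the log2 level was set against the mean log2 level of the others over the 26 libraries, which share cell types, depth and scaling. Pearson's r had a median of 0.969, and 64 of 74 members were above 0.9. Among the lowest were Rpl34 at 0.14, Rps2 at 0.77 and Rpl10 at 0.77. Outside the rule, genes with a high r to the members' mean were Rps3a1 (0.988), Fau (0.961), Eif3h (0.952), Use1 (0.940), Gnb2l1 (0.938), Btf3 (0.937) and the snoRNA host Gas5 (0.931). Rps3a1, Fau and Gnb2l1 encode proteins of the cytosolic ribosome. Eif3h is a subunit of initiation factor eIF3, and Btf3 is part of the complex that meets nascent chains at the ribosome.

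Among WT cells, ribosomal protein transcripts were highest in spleen DCs and lowest in alveolar macrophages. Their reads were 3.74 ± 0.22% (SD, n = 2) of all reads in spleen CD8a DCs and 3.53 ± 0.14% (n = 2) in spleen CD11b DCs. They were 2.57 ± 0.31% (n = 3) in lung CD11b DCs, 1.5 ± 0.06% (n = 3) in inflammatory DCs and 1.38 ± 0.06% (n = 3) in alveolar macrophages. The WT means were highest in spleen CD8a DCs for 60 members and in spleen CD11b DCs for 14, and lowest in alveolar macrophages for 73. Rpl22, an RNA-binding member, was the exception with its lowest mean in inflammatory DCs. The highest cell type mean was between 1.49 and 3.98 times the lowest, with a median of 2.38 times. These are shares of the RNA in a library, so fewer messages per cell and more of other messages cannot be told apart.

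**Figure D1:**
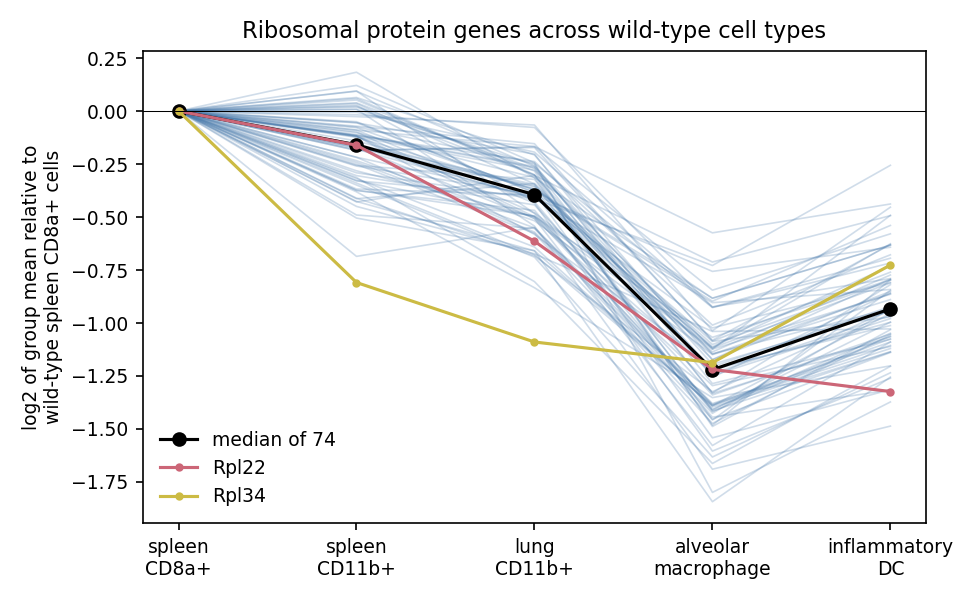
Log2 of each member's WT group mean (with 1 added) relative to spleen CD8a DCs, 1 thin line per member for the 74 tested genes, with the median in black and Rpl22 and Rpl34 in colour. Most lines have their lowest point at alveolar macrophages, where Rpl22 does not follow.

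Alveolar macrophages, which clear particles and surfactant from the airspaces, had lower levels than lung CD11b DCs for 73 of 74 members and higher for 0, where 27.2% of all 13311 tested genes were called lower and 24% higher. The median difference was -0.83 on the log2 scale, against -0.01 over all genes. Rps6 had 4378, 4120.5 and 4836 normalized counts in lung CD11b DCs and 1887, 2049 and 1991 in alveolar macrophages, a difference of -1.17 ± 0.10 (adjusted p = 5.32e-10). Every macrophage library was below every DC library. Also among those of smallest p, Rpl21, of the large subunit, differed by -1.15 ± 0.10, Rps29 at -1.18 ± 0.11, Rpl13 at -1.05 ± 0.10 and Rpl19 at -1.18 ± 0.11. Rpl34 was the member not called.

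Inflammatory DCs were also below lung CD11b DCs, in 66 of 74 members (23.8% of all genes lower, 23.7% higher), with 0 higher and a median of -0.50 against -0.01 over all genes. Rpl21 had 2322, 2122 and 2251 counts in inflammatory DCs and 4305, 3729 and 4714 in lung CD11b DCs, a difference of -0.92 ± 0.10 (adjusted p = 1.27e-07). Others of small p were Rps6 at -0.83 ± 0.10, Rpl4 at -0.69 ± 0.08 and Rps9 at -0.82 ± 0.11. The allergen treatment, the cell type and the sex of the mice, by Y-linked reads, differ together in this comparison and cannot be told apart. The part of the macrophage markers given above was not tested. Lung CD11b DCs in turn were below spleen CD11b DCs in 26 members and above in 0 (13.8% and 21.1% of all genes), with a median of -0.24. They included Rps15a at -0.58 ± 0.11 (adjusted p = 3.02e-04), Rps19 at -0.51 ± 0.13, Rps27a at -0.46 ± 0.12, Rpl17 at -0.50 ± 0.13 and Rpl4 at -0.35 ± 0.09. That count was 61 when libraries were scaled by total reads, a scaling that moved the median of all genes to -0.20 and the share of calls that were higher from 60.5% to 39.6%, and it fell to 5 without WT spleen CD11b replicate 2, to 10 without WT lung CD11b replicate 2 and to 8 in a fit of these groups alone. For inflammatory DCs the same scaling moved the median of all genes to -0.24 and the share of calls that were higher from 49.9% to 33.7%, and 71 members were called.

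Within the spleen, 12 members were called higher in CD8a than in CD11b DCs and 0 lower (12.2% of all genes higher, 10.8% lower), a share near the background. The median difference was 0.15. Rpl28 led with 1916 and 1799 against 1123 and 1186 counts, a difference of 0.69 ± 0.13 (adjusted p = 3.69e-04). Rpl14 at 0.49 ± 0.12, Rps26 at 0.51 ± 0.14, Rplp1 at 0.45 ± 0.13 and Rps29 at 0.42 ± 0.13 followed. The count fell to 1 in a fit of the spleen WT libraries alone or without WT CD11b replicate 1, and lay at 3 without WT CD8a replicate 1 and 5 without WT CD11b replicate 2.

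Alveolar macrophages of KO mice had higher levels of nearly all ribosomal protein transcripts. Of 74 members, 72 were called higher and 0 lower, where 10.5% of all tested genes were called higher and 6.39% lower. Both subunits took part, with 43 of 44 large and 29 of 30 small subunit genes and medians of 0.81 and 0.83. The median over the 74 was 0.81 on the log2 scale (1.76-fold), against 0.02 over all genes. Called members rose by 0.47 to 1.29, and 5 rose more than 2-fold. The members took 1.31%, 1.41% and 1.42% of the reads in the WT libraries and 2.81%, 2.36% and 2.14% in the KO libraries. KO replicate 1 was the highest of the 3, with a median member 1.04 above the WT mean on the log2 scale, against 0.75 and 0.61 in the others. The lowest KO library still lay above the WT libraries.

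**Figure D2:**
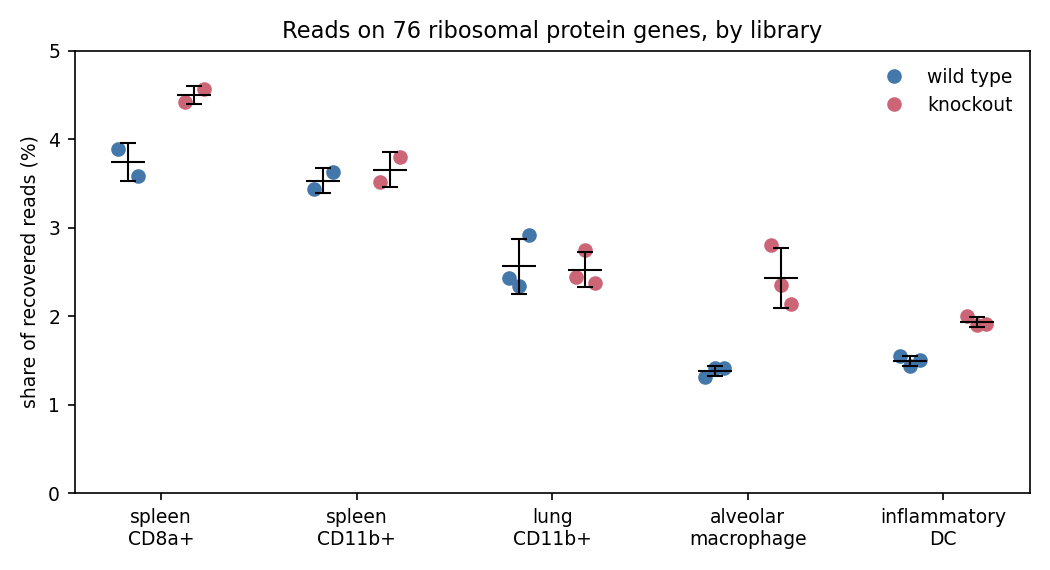
Share of recovered reads on the 76 genes (%) in each of the 26 libraries, as points, with the mean and SD of each group in black. The 3 KO alveolar macrophage libraries (2.14% to 2.81%) lie above the 3 WT libraries (1.31% to 1.42%), and the KO and WT lung CD11b libraries overlap.

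The largest rise was that of Rpl12, a protein at the base of the ribosomal stalk (chr2:32961559-32965345, plus strand), with WT counts of 950.3, 959 and 944 and KO counts of 2778, 2403 and 1890.1. It rose by 1.29 ± 0.11 (adjusted p = 1.25e-08), or 2.45-fold. Rpl23, a protein of the large subunit, had 1942, 2179 and 2159.7 counts in WT and 5296, 4349.6 and 3792 in KO libraries and rose by 1.09 ± 0.10 (adjusted p = 4.97e-08). Rpl4, which lines the peptide tunnel (chr9:64173375-64178666, plus strand), went from 5711, 5894 and 5869 to 12768, 10041 and 9828, a rise of 0.89 ± 0.08 (adjusted p = 5.00e-08). In all 3 genes the lowest KO library was well above the highest WT library. Rpl23a rose by 1.1 ± 0.11 (adjusted p = 1.82e-07) and Rps18 by 0.93 ± 0.10 (adjusted p = 3.35e-07).

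The members with particular roles followed the rest of the set in these macrophages. Rps6, the substrate of the S6 kinases that act below mTORC1 (chr4:86854660-86857412, minus strand), had 1887, 2049 and 1991 counts in WT and 4174, 3290.4 and 3115 in KO libraries and rose by 0.82 ± 0.10 (adjusted p = 1.18e-06). The 3 genes of the P stalk, which recruits elongation factors, were all called. Rplp0 rose from 6533, 7043 and 6969 to 12827, 11441 and 9299 counts, by 0.70 ± 0.10 (adjusted p = 1.60e-05), while Rplp1 rose by 0.85 ± 0.11 and Rplp2 by 0.76 ± 0.12. Rpl5 and Rpl11, which bind the 5S RNA and restrain the p53 regulator MDM2, rose by 0.98 ± 0.11 and 0.56 ± 0.11. Rpsa, also known as a laminin receptor, rose by 0.83 ± 0.12, and Rpl13a, a reported translational silencer in myeloid cells, by 0.75 ± 0.11. Rps19, the gene first linked to Diamond-Blackfan anaemia, rose by 0.97 ± 0.11, and 17 of 18 tested genes linked to that disease were called higher. The X-linked genes Rpl10, Rpl36a, Rpl39 and Rps4x rose by 0.84 ± 0.10, 1.08 ± 0.13, 0.82 ± 0.13 and 0.86 ± 0.10. Rpl22 rose least of these, by 0.49 ± 0.13 (adjusted p = 0.00742). The 2 members not called were Rpl34 at 0.08 ± 0.66 (adjusted p = 0.971) and Rps27, whose KO counts of 27.4, 29.6 and 27.4 lay above the WT counts of 9.1, 14.3 and 18.4 at 1.01 ± 0.37 (adjusted p = 0.0628). In 73 of 74 members the KO and WT libraries did not overlap, with the KO higher, where 23.1% of all tested genes lay that way.

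**Figure D3:**
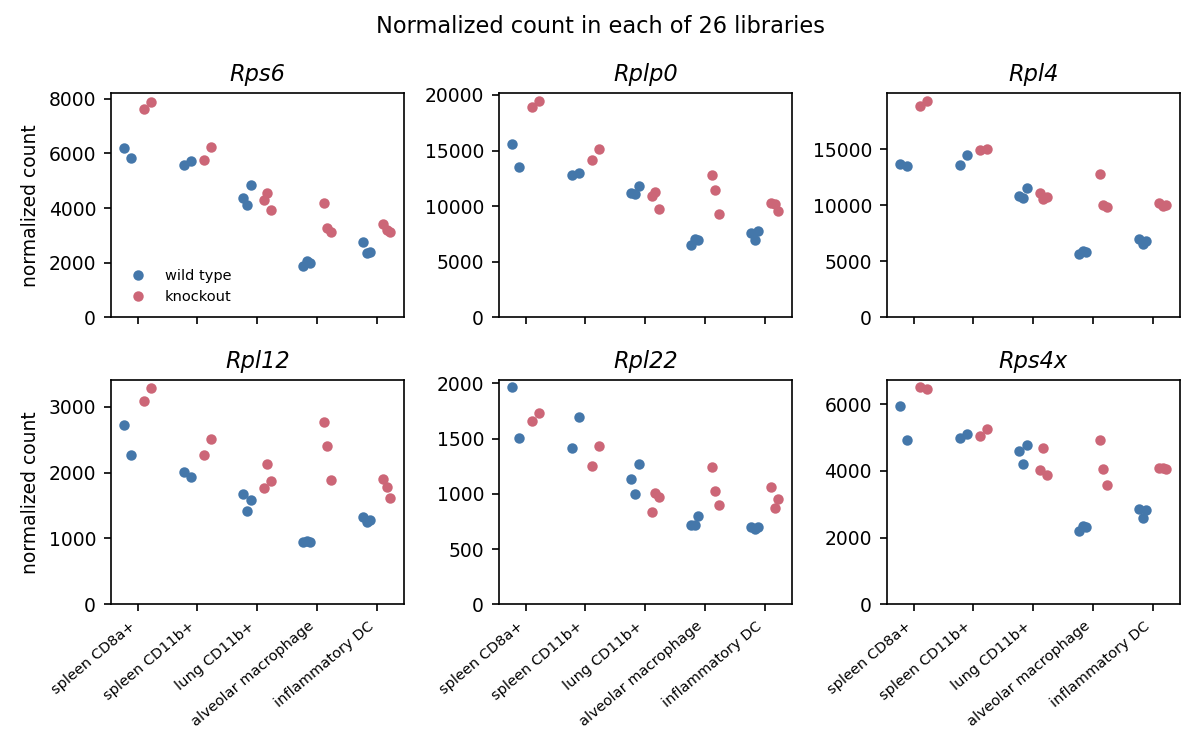
Normalized count (linear axis from 0) of 6 members in each of the 26 libraries, WT in blue and KO in red, by cell type. In alveolar macrophages all 3 KO points lie above the WT points for each of the 6 genes, and the KO and WT points of Rpl22 overlap in spleen CD8a DCs.

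Markers of other cells and of the macrophages themselves moved in the same comparison. The summed counts of the alveolar macrophage list were 343494 to 354899 in WT and 225063 to 244541 in KO libraries, with 1 of 13 tested genes called higher and 4 lower. The fall of the sum lay in Chi3l3, with means of 273577 in WT and 155396 in KO libraries, which limma did not call (adjusted p = 0.164). The mean sum of the other listed genes did not fall. The T cell list summed to 3825 to 3969 in WT and 4607 to 4805 in KO libraries, with 6 of 8 tested genes called higher and none of the listed genes at 0 in every library of a group. The WT sum was nearly all Cd2, which had means of 3875 in WT and 2793 in KO libraries and was not called by limma (adjusted p = 0.515). The called genes Cd3d, Cd3g and Cd4 had means of 0.38, 1.5 and 1.5 in WT and 10.8, 18.6 and 24.6 in KO libraries. Their rise was thus from near the floor, and the sum does not measure it. Cd3e, which defines T cells, had 3.4, 4.4 and 6.5 counts in WT and 13.3, 28.7 and 38.4 in KO libraries. The monocyte and macrophage list summed to 271999 to 275205 and 210437 to 227243, with 7 of 15 genes called higher and 1 lower. Itgam, a gene of monocytes and CD11b DCs, had 102, 55.2 and 129 and 1063, 1492 and 1777 counts. It belongs to the list of the CD11b type of conventional DC, called cDC2. That list summed to 28665 to 29062 in WT and 26575 to 28654 in KO libraries, so its sum did not rise with Itgam. The part of these shifts, and of sex, in the ribosomal result was not tested.

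Inflammatory DCs of KO mice also had higher ribosomal protein transcripts, with fewer calls. Of 74 members, 27 were called higher and 0 lower (1.45% and 1.92% of all genes), 18 of 44 in the large and 9 of 30 in the small subunit. The median was 0.37 (1.29-fold), against -0.02 over all genes. The members took 1.55%, 1.43% and 1.51% of reads in WT and 2.00%, 1.90% and 1.91% in KO libraries, with no overlap. For 69 members all KO libraries lay above all WT libraries, where 9.83% of all genes did. Rpl4 went from 6973, 6579.6 and 6872 to 10232, 9918 and 10048 counts, a rise of 0.56 ± 0.08 (adjusted p = 5.71e-04). Rps4x, an X-linked gene of the small subunit, went from 2848, 2591 and 2833 to 4074, 4094 and 4058, a rise of 0.56 ± 0.10 (adjusted p = 0.00226). Its KO libraries lay close together and above the WT libraries. Rpl3, which lies near the peptidyl transferase centre, rose by 0.45 ± 0.09 (adjusted p = 0.00472), Rpl36a by 0.63 ± 0.13 (adjusted p = 0.00571) and Rps9 by 0.55 ± 0.11 (adjusted p = 0.00571).

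The members with particular roles were split here. Rps6 rose by 0.38 ± 0.10 (adjusted p = 0.0313), Rplp0 by 0.43 ± 0.10 (adjusted p = 0.0158), Rpl5 by 0.41 ± 0.11 (adjusted p = 0.0415) and Rpl22 by 0.47 ± 0.13 (adjusted p = 0.0379). Differences that were not called were 0.38 ± 0.11 (adjusted p = 0.0573) for Rplp1, 0.21 ± 0.12 for Rplp2, 0.40 ± 0.12 for Rpsa, 0.27 ± 0.11 for Rpl11, 0.26 ± 0.11 for Rpl13a, 0.33 ± 0.11 for Rps19, 0.35 ± 0.10 for Rpl10 and 0.43 ± 0.13 for Rpl39. Each of them was positive. Rps27 and Rpl34 stood at 0.07 ± 0.37 and 0.02 ± 0.66. All 27 members called here were among the 72 called in alveolar macrophages, which is nearly the whole set, and the log2 difference was larger in the macrophages for each of the 74 members.

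The number called in inflammatory DCs depended on the fit, while the direction did not. It was 0 when only these 6 libraries were fitted, although 69 members then had an unadjusted p under 0.05 and the same median, and it was 44 with DESeq2 and 51 with sample weights. It fell to 10 without KO replicate 1, 11 without WT replicate 2, 13 without WT replicate 3 and 14 without KO replicate 2. The conventional DC list summed to 260745 to 303574 counts in WT and 247813 to 385813 in KO libraries, with 5 of 9 genes called lower and 0 higher. Over all genes 1.92% were called lower and 1.45% higher. The mean sum was 279319 in WT and 335749 in KO libraries, so it did not fall with the called genes. The monocyte and macrophage list summed to 224161 to 266111 and 298548 to 358933. The part of these lists in the ribosomal result was not tested.

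Spleen CD8a DCs, known for cross-presentation of antigen to CD8 T cells, had 6 members called higher and 0 lower in KO libraries (1.5% of all genes higher, 3.63% lower), with a median of 0.26 (1.20-fold) against 0.00 over all genes. The members took 3.89% and 3.59% of reads in WT and 4.42% and 4.57% in KO libraries. Rpl4 had 13687 and 13489 counts in WT and 18887 and 19318 in KO libraries and rose by 0.49 ± 0.10 (adjusted p = 0.00402). Rpl3 went from 14920.3 and 13237 to 19347 and 19651 and rose by 0.47 ± 0.11 (adjusted p = 0.00729). In both genes the KO libraries lay well above the WT libraries. Rpl13 rose by 0.43 ± 0.12 (adjusted p = 0.0297), Rps18 by 0.44 ± 0.12 (adjusted p = 0.0359) and Rps3 by 0.41 ± 0.12 (adjusted p = 0.0423). Rpsa stood at 0.47 ± 0.14 (adjusted p = 0.0542), Rplp0 at 0.40 ± 0.12 (adjusted p = 0.0564) and Rps6 at 0.37 ± 0.12 (adjusted p = 0.0762). The differences of the other members with particular roles were 0.11 ± 0.13 for Rplp1, 0.11 ± 0.15 for Rplp2, 0.24 ± 0.14 for Rpl5, 0.08 ± 0.13 for Rpl11, 0.24 ± 0.13 for Rpl13a, 0.32 ± 0.14 for Rps19, 0.10 ± 0.12 for Rpl10, 0.33 ± 0.15 for Rpl36a, 0.27 ± 0.16 for Rpl39 and 0.26 ± 0.12 for Rps4x, none of them called. Rpl22, at -0.02 ± 0.15, was among the few below 0, since 70 of 74 differences were positive. The KO libraries lay above the WT libraries in 56 members and below in 2, where 23.1% and 23.6% of all genes did.

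The number called depended on the fit and on single libraries. It was 0 in a fit of the 4 libraries alone, 3 with scaling by total reads, 2 with edgeR and 12 with DESeq2, and it fell to 1 without WT replicate 2, KO replicate 1 or KO replicate 2. The monocyte and macrophage list summed to 26299 to 39380 counts in WT and 8217 to 8444 in KO libraries, with 11 of 15 tested genes called lower and none of the listed genes at 0 throughout a group. The part of this shift, and of sex, in the ribosomal difference was not tested.

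In spleen CD11b DCs no member was called with limma (1.28% of all genes were called higher and 0.233% lower), and 0 had an unadjusted p under 0.05. The counts called were also 0 with edgeR and DESeq2. The median was 0.08, and the members took 3.44% and 3.63% of reads in WT and 3.52% and 3.79% in KO libraries, with overlap. Rps6 had 5585 and 5707 counts in WT and 5777 and 6218 in KO libraries, a difference of 0.09 ± 0.12 (adjusted p = 0.894). Rpl4 stood at 0.09 ± 0.10 (adjusted p = 0.851), Rplp0 at 0.18 ± 0.12, Rplp1 at 0.10 ± 0.13, Rplp2 at 0.18 ± 0.15, Rpsa at 0.21 ± 0.14, Rpl5 at 0.05 ± 0.14, Rpl11 at 0.08 ± 0.13 and Rpl13a at 0.09 ± 0.13. Rps19 stood at 0.13 ± 0.14, Rpl22 at -0.21 ± 0.15, and the X-linked Rpl10, Rpl36a, Rpl39 and Rps4x at -0.04 ± 0.12, 0.12 ± 0.15, 0.00 ± 0.16 and 0.03 ± 0.12. The smallest p among members belonged to Rpl12, at 0.27 ± 0.14 (adjusted p = 0.43). The test of CD8a against CD11b differences called 0 of 74 members (0.195% of all genes higher, 2.25% lower) with limma, edgeR and DESeq2, with a median of 0.18 and 3 members at an unadjusted p under 0.05 in limma. An effect that differs between the spleen cell types was therefore not shown. KO replicates 1 and 2 had Y-linked sums of 977 and 3049 in CD8a and 932 and 3295 in CD11b DCs, with Xist at 3619.7 and 12.0 and at 3092 and 21.4. Whether the same mice gave both cell types is not stated in the labels, and the test treats the libraries as separate.

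Lung CD11b DCs of KO mice had ribosomal protein transcripts at about the WT level. Of 74 members, 2 were called higher and 1 lower, where 12% of all tested genes were called higher and 14% lower. The median was -0.04, against -0.05 over all genes. The members took 2.43%, 2.35% and 2.92% of reads in WT and 2.45%, 2.75% and 2.38% in KO libraries, and the ranges overlap. Rps2 had 4624, 4447 and 4825 counts in WT and 5287, 5596 and 5334 in KO libraries, a rise of 0.22 ± 0.08 (adjusted p = 0.0473). Rpl12 had 1673, 1417 and 1589 and 1765, 2132 and 1880.0, a rise of 0.30 ± 0.11 (adjusted p = 0.0496). In both genes every KO library lay above every WT library. Rps6 stood at -0.07 ± 0.10 (adjusted p = 0.672), Rplp0 at -0.10 ± 0.10, Rpl4 at -0.03 ± 0.08, Rpl22 at -0.27 ± 0.13 and Rps4x at -0.12 ± 0.10, and none was called. Nor were Rplp1 at -0.18 ± 0.11, Rplp2 at 0.03 ± 0.12, Rpsa at -0.08 ± 0.12, Rpl5 at 0.11 ± 0.11, Rpl11 at -0.04 ± 0.11, Rpl13a at -0.11 ± 0.11, Rps19 at 0.05 ± 0.11, Rpl10 at -0.04 ± 0.10, Rpl36a at 0.16 ± 0.13 or Rpl39 at -0.04 ± 0.13. The 3 calls were 0 in a fit of these libraries alone, with sample weights or without KO replicate 3, 1 with edgeR, and 1 without WT replicate 1, WT replicate 3 or KO replicate 2. In 3 of the 6 lung libraries (WT replicate 3 and KO replicates 2 and 3) 12992 to 13173 genes were above 0, against 13876 to 14407 in the others. Within the first 3 the members took 2.92% in WT and 2.75% and 2.38% in KO, and within the others 2.43% and 2.35% in WT and 2.45% in KO. Markers moved here too. The conventional DC list summed to 811056 to 942746 counts in WT and 489640.0 to 553602 in KO libraries, with 5 of 9 genes called lower and 0 higher. The list of cDC2, the CD11b type of conventional DC, summed to 65989.5 to 72367 and 26490.4 to 37982, with 3 of 9 lower and 0 higher. The T cell list summed to 1349.8 to 1661 and 2633 to 3824, with 1 of 8 higher, and the monocyte and macrophage list to 95316 to 103187 and 102016 to 144412, with 5 of 15 higher and 1 lower. None of these listed genes was at 0 throughout a group. The part of these shifts in the ribosomal values was not tested.

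The KO effect itself was then compared between lung cell types. It was larger in alveolar macrophages than in lung CD11b DCs for 71 of 74 members and smaller for 0 (10.2% and 6.6% of all genes), with a median difference of 0.85. Rpl4 differed by 0.92 ± 0.12 (adjusted p = 1.37e-05) and Rps6 by 0.89 ± 0.14 (adjusted p = 8.90e-05). Between inflammatory DCs and lung CD11b DCs, 23 members differed and all upward (6.08% of all genes higher, 6.95% lower), with a median of 0.38. Rpl4 differed by 0.59 ± 0.12 (adjusted p = 0.00204) and Rps4x by 0.68 ± 0.14 (adjusted p = 0.00239). Rpl22 differed by 0.74 ± 0.18 (adjusted p = 0.00747), since its levels rose in inflammatory DCs and stood at -0.27 ± 0.13 in lung CD11b DCs. Both tests share the lung CD11b libraries, whose marker shifts are given above, so they are not independent of each other. Mtor transcripts fell further in KO alveolar macrophages than in KO lung CD11b DCs, as given above. The first test therefore compares extents of Mtor loss along with cell types, which cannot be told apart. Y-linked reads were in all 3 KO and no WT alveolar macrophage libraries but in 1 of 3 KO lung CD11b libraries, so the first test compares sexes along with genotypes. All 6 inflammatory DC libraries had such reads, so in the second test their presence differs only in the lung CD11b arm. Xist, however, was at 717.5 in inflammatory DC WT replicate 1 and at most 5.8 in the other inflammatory DC libraries. Sex is therefore not shown to be equal in that arm either. The part of sex was not tested. The second count was 8 with sample weights, 11 in a fit of these groups alone and 15 with edgeR. It was 36 without lung KO replicate 2, 14 without lung KO replicate 3, and 15 without lung WT replicate 3, inflammatory DC WT replicate 2 or 3, or KO replicate 1. Lung CD11b against spleen CD11b DCs gave 0 members (5.86% of all genes higher, 6.6% lower), also with edgeR and DESeq2, and 0 at an unadjusted p under 0.05 in limma.

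**Figure D4:**
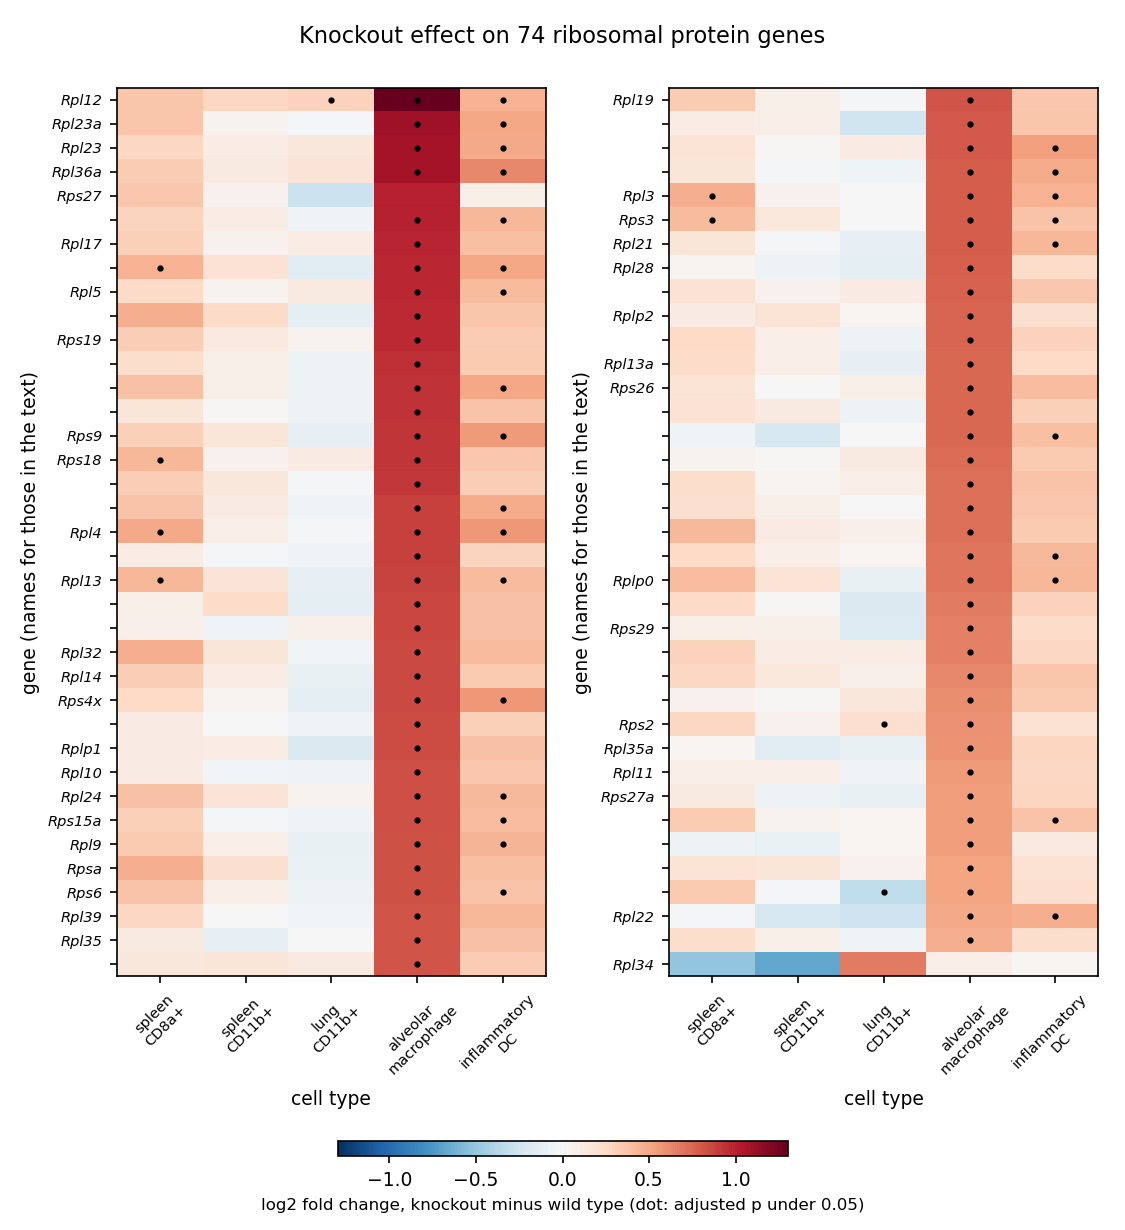
Log2 fold change (KO minus WT) of each of the 74 tested members in the 5 cell types, ordered by the value in alveolar macrophages, with a dot where the adjusted p is under 0.05 and names for members described in the text. The alveolar macrophage column holds 72 dots, inflammatory DCs 27, spleen CD8a DCs 6, lung CD11b DCs 3 and spleen CD11b DCs 0.

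Averaged over the 5 cell types, 68 of 74 members were higher in KO cells and 0 lower (9.53% and 8.17% of all genes), with a median of 0.29. Rpl12 led with 0.54 ± 0.06 (adjusted p = 2.25e-07), then Rpl4 with 0.40 ± 0.04 (adjusted p = 2.51e-07), Rpl23 with 0.42 ± 0.05, Rpl3 with 0.35 ± 0.04 and Rpl24 with 0.37 ± 0.05. The medians of the single cell types that enter it ran from -0.04 in lung CD11b DCs to 0.81 in alveolar macrophages. Across the 74 members, as a description over genes measured in the same libraries, the KO differences correlated at r = 0.75 between the spleen types and 0.58 between alveolar macrophages and inflammatory DCs. Those of lung CD11b DCs had r between -0.30 and -0.10 with the other 4 cell types.

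Other messages of the translation machinery moved with the set. Of 23 tested translation factors and other known TOP messages, 18 were called higher and 0 lower in KO alveolar macrophages, with a median of 0.57. Eef1a1, which brings aminoacyl-tRNA to the ribosome, went from 32809, 33432 and 33656 to 75928, 64735 and 55784 counts and rose by 0.96 ± 0.11 (adjusted p = 5.46e-07). Its exchange factor Eef1b2 rose by 0.92 ± 0.09 (adjusted p = 4.35e-08) and Npm1, a nucleolar chaperone, by 0.83 ± 0.09 (adjusted p = 7.23e-07). In inflammatory DCs 10 of the 23 rose, with a median of 0.36, among them Npm1 by 0.56 ± 0.09, Pabpc1 by 0.50 ± 0.09 and Eif3h by 0.41 ± 0.08. In spleen CD8a DCs 7 rose, led by Eif3e at 0.57 ± 0.10, Eef2 at 0.55 ± 0.11 and Npm1 at 0.50 ± 0.12. Spleen CD11b DCs had 1 call, Pabpc1 at 0.44 ± 0.11. Lung CD11b DCs had 2 higher, Eif3a at 0.39 ± 0.07 and Eef1g at 0.25 ± 0.09, and 1 lower, Eif4b at -0.38 ± 0.12. Both shares there were below the 12% higher and 14% lower of all genes. The snoRNA host genes, whose spliced messages also start with a TOP motif, had 4 of 7 higher in KO alveolar macrophages. Gas5 rose there by 0.90 ± 0.10 (adjusted p = 7.40e-07), Snhg6 by 1.29 ± 0.24 and Snhg1 by 0.83 ± 0.17.

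**Figure D5:**
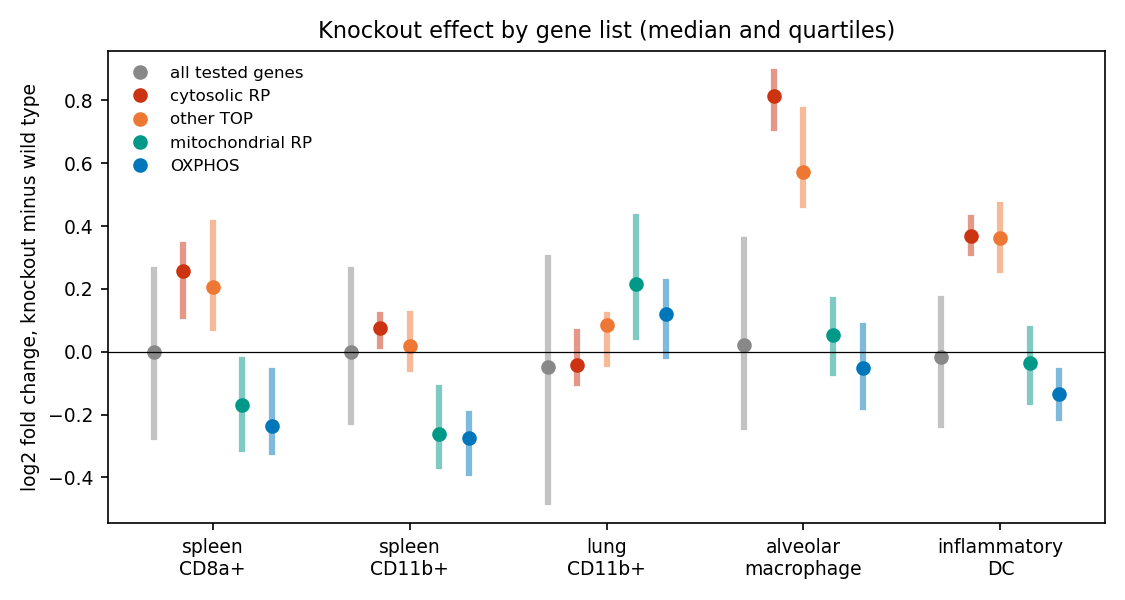
Median (point) and quartiles (bar) of the log2 fold change, KO minus WT, for all 13311 tested genes, the 74 cytosolic ribosomal protein (RP) genes, 23 other TOP messages, 76 mitochondrial ribosomal protein genes and 61 oxidative phosphorylation (OXPHOS) genes, by cell type. In alveolar macrophages the cytosolic RP median is 0.81 and the other TOP median 0.57, while the mitochondrial RP and OXPHOS medians are 0.05 and -0.05.

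Genes of the mitochondrial ribosome, which translates the few messages of the mitochondrial genome, gave other counts. Of 76 mitochondrial ribosomal protein genes, 2 were called higher and 1 lower in KO alveolar macrophages, with a median of 0.05. In inflammatory DCs limma called 0, with 0 higher and 2 lower at an unadjusted p under 0.05. In lung CD11b DCs, where the cytosolic set had 2 higher and 1 lower, 16 mitochondrial genes were called higher and 0 lower, with a median of 0.22, where 12% of all genes were higher and 14% lower. The 61 genes of oxidative phosphorylation had 4 higher in macrophages, a share below the 10.5% of all genes. At an unadjusted p under 0.05 in limma, 5 were higher and 10 lower there. By the same measure 0 were higher and 26 lower in KO spleen CD11b DCs, and 0 higher and 19 lower in KO spleen CD8a DCs. No share of all genes at an unadjusted p is given here, so these counts have no background to be read against. Lung CD11b DCs had 8 called higher and 1 lower, the higher share near that of all genes, including Cycs at 0.60 ± 0.10 and Sdhd at 0.58 ± 0.11. In inflammatory DCs Ndufa4 at -0.93 ± 0.17 and Cycs at -0.38 ± 0.10 fell.

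Genes that build ribosomes, 35 of them tested, had 3 higher (Myc at 0.94 ± 0.23, Ncl at 0.32 ± 0.08 and Gnl3 at 0.66 ± 0.17) and 1 lower (Bop1 at -0.46 ± 0.13) in KO alveolar macrophages. Both shares were below the 10.5% higher and 6.39% lower of all genes there. In lung CD11b DCs 10 were higher, led by Nmd3 at 0.78 ± 0.15, Brix1 at 0.70 ± 0.13 and Nop2 at 0.52 ± 0.12, and 5 lower, led by Polr1a at -0.79 ± 0.15, Rrp12 at -0.98 ± 0.29 and Ubtf at -0.36 ± 0.11. The share higher was 28.6% and the share lower 14.3%, against 12% and 14% of all genes, so the lower calls were at the background. Paralogs of ribosomal proteins, 11 of them tested, had 0 calls with limma in KO alveolar macrophages, and 1 was higher at an unadjusted p under 0.05. Rpl22l1, the paralog of Rpl22, stood at 0.29 ± 0.14 (adjusted p = 0.192) there and at -0.02 ± 0.14 in inflammatory DCs.

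The regulators of TOP messages were a mixed list of 23 genes that includes Mtor. Larp1, which encodes the TOP binding protein, had 1082 and 938 counts in WT and 1857 and 1804 in KO spleen CD11b DCs, a rise of 0.86 ± 0.11 (adjusted p = 7.90e-05). It also rose by 0.53 ± 0.11 (adjusted p = 0.00287) in spleen CD8a DCs, 0.51 ± 0.09 (adjusted p = 1.46e-04) in lung CD11b DCs and 0.27 ± 0.09 (adjusted p = 0.0393) in alveolar macrophages, and stood at 0.10 ± 0.09 (adjusted p = 0.743) in inflammatory DCs. Eif4ebp1, a translation repressor that mTORC1 phosphorylates, was not called in any cell type, with differences from -0.29 ± 0.18 in spleen CD8a DCs to 0.19 ± 0.14 in lung CD11b DCs. In lung CD11b DCs 4 of the 23 were higher, with Eif4a1 at 0.48 ± 0.09 and Eif4e at 0.40 ± 0.10, and 6 lower, with Pdcd4 at -1.63 ± 0.29, Tsc2 at -0.66 ± 0.13 and Eif4ebp2 at -0.85 ± 0.20. These are 17.4% and 26.1% of the list, against 12% and 14% of all genes. In alveolar macrophages Cnbp at 0.45 ± 0.11 and Tial1 at 0.42 ± 0.13 rose, and Eif4g1 at -0.34 ± 0.08 fell.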

How the data were processed

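RNA was sequenced from 26 libraries in 10 groups of sorted mouse cells. Per the labels, total RNA had an integrity number above 8.5, and Clontech and Nextera XT protocols served for the libraries. The submitters' processing notes list STAR 2.3.1s, HTSeq, DESeq2 1.10.1 and mm10. Annotation and strand setting are not given in the sources used here. Values as deposited are DESeq2-normalized counts, a signal per gene in which reads were divided by a library's size factor. All values (100%) became whole reads within 1e-06 after division by the library's smallest positive value.

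The members and gene lists were chosen with earlier results of these data known. limma 3.58.1 (R 4.3.3) was fitted to log2(normalized count + 1) for 13311 genes, with 1 mean per group over all 26 libraries, a mean-variance trend and Benjamini-Hochberg adjustment within each comparison. A gene was called at an adjusted p under 0.05, and errors of log2 fold changes are moderated SEs. The added 1 understates changes of low genes. Positions are from GENCODE M21. Named genes were a fixed set of 14 members, the up to 6 called members of smallest p per direction, the 5 highest and 5 lowest per kb, up to 3 called genes per other list and direction, Mtor, Larp1, Eif4ebp1 and Rpl22l1, and the 8 genes most alike. Values given outside this rule were chosen after being seen. Alternatives were a pseudocount of 8, no filter, TMM and total-read scaling, edgeR 4.0.16, DESeq2 1.42.0, sample weights, a fit of the groups compared, and each library left out. The steps were tested on simulated data. Mitochondrial ribosomal proteins were matched by symbol. Some genes within the naming rule are not reported here by name, and counts over the set include them.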

Additional observations from a re-analysis of the deposited data

Results flagged for a closer look

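The KO effect on ribosomal protein genes differed between lung cell types by a test of the difference itself. In alveolar macrophages minus lung CD11b DCs, limma called 71 members, and those of smallest p included Rpl4 (0.92), Rpl13 (0.99), Rpl9 (0.92) and Rpl23a (1.12), as log2 differences between the effects. In inflammatory DCs minus lung CD11b DCs, limma called 23 members, and those of smallest p included Rpl4 (0.59), Rps4x (0.68), Rps9 (0.66), Rpl22 (0.74) and Rpl9 (0.54). Both differences use the same lung CD11b libraries. Mtor transcripts fell further in KO alveolar macrophages than in KO lung CD11b DCs, which cannot be told apart from the cell type in the first difference. The alveolar macrophage arm also compares KO libraries with Y-linked reads and WT libraries without them, while 2 of 3 lung CD11b KO libraries lack them, and the part of sex was not tested. With 2 or 3 libraries a group, no test for a single outlying library was run.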

How the results depend on the processing

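No called value of a named gene changed sign under an alternative. The median of the members in KO lung CD11b DCs, -0.04, became 0.0034 with sample weights and lay between -0.11 and 0.036 with a library left out, and no other median over the members changed sign. The KO count in alveolar macrophages lay between 71 and 73, the average over cell types between 65 and 69, and WT alveolar macrophages against lung CD11b DCs between 72 and 73, under every alternative. For KO spleen CD8a DCs the 6 became 3 with total-read scaling, 2 with edgeR, 12 with DESeq2 and 0 in a fit of its own groups, and 1 to 4 with a library left out. For KO lung CD11b DCs the 3 became 1 without the filter, 1 with edgeR, 0 with sample weights, 0 in its own groups, and 0 to 2 with a library left out. For KO inflammatory DCs the 27 became 44 with DESeq2, 51 with sample weights, 0 in its own groups, and 10 to 20 with a library left out. For WT spleen CD8a against CD11b DCs the 12 became 5 with total-read scaling, 6 with sample weights, 1 in its own groups, and 1 to 8 with a library left out. For WT lung against spleen CD11b DCs the 26 became 61 with total-read scaling, 8 in its own groups, and 5 to 34 with a library left out. For the KO effect in inflammatory DCs minus lung CD11b DCs the 23 became 15 with edgeR, 8 with sample weights, 11 in its own groups, and 14 to 36 with a library left out. For the effect in alveolar macrophages minus lung CD11b DCs the 71 became 66 with sample weights, 62 in its own groups, and 67 to 73 with a library left out. Fits of own groups use fewer libraries to estimate the spread, and the cause of the other shifts was not tested. Of the values of named members under alternatives, 1589 kept their side of the threshold, 110 lost the call and 17 gained one. No paired analysis was possible because the sample titles number the libraries from 1 to 26 and share no replicate number between groups. With 2 or 3 libraries a group, small differences could not be told from none.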

Other observations

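Between WT cell types, other parts of the translation machinery had counts of their own. Of 23 other TOP messages, 16 were lower and 1 higher in alveolar macrophages than in lung CD11b DCs, with a median of -0.54, and 14 were lower and 1 higher in inflammatory DCs, with a median of -0.38. Eef1g, a subunit of elongation factor 1, differed by -1.09 ± 0.09 (adjusted p = 4.63e-10) and the abundant TOP message Tpt1 by -0.97 ± 0.11 (adjusted p = 6.79e-08) between alveolar macrophages and lung CD11b DCs, both lower in the macrophages. Eif3a, the largest subunit of eIF3, was higher there, by 0.39 ± 0.07 (adjusted p = 2.95e-05). The snoRNA hosts had 6 of 7 lower and 1 higher, with Gas5 at -1.51 ± 0.10 (adjusted p = 1.61e-11) and Snhg3 higher by 0.59 ± 0.21 (adjusted p = 0.0241). Ribosome biogenesis genes had 8 of 35 higher and 2 lower in alveolar macrophages, a share of higher calls near the 24% of all genes, with 27.2% lower. They included the nucleolar methyltransferase Nop2, at 1.31 ± 0.12 (adjusted p = 3.75e-09), and the assembly factor Rrs1, at 0.97 ± 0.16 (adjusted p = 1.56e-05). Fbl, the methyltransferase fibrillarin, was lower at -0.57 ± 0.17 (adjusted p = 0.00885). In the spleen, Eef1b2 was higher in WT CD8a than in WT CD11b DCs, with 7465 and 6494 against 2663 and 2488 counts and a difference of 1.44 ± 0.11 (adjusted p = 8.62e-10). No ribosomal protein gene differed there by more than Rpl28, at 0.69 ± 0.13, among those called.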
